A study of Mus musculus with 11 samples.

Results

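Acyl-CoA thioesterases (Acot enzymes) split an activated fatty acid, an acyl-CoA, into the free acid and coenzyme A, and so act against the acyl-CoA synthetases that make it. Type I enzymes (Acot1 to Acot6) are close copies of one another that work in different compartments of the hepatocyte, and several of them are classic targets of the fatty acid receptor PPARalpha in fasted liver. Type II enzymes share another fold, the hotdog domain. The genes described here are the 9 rows of the liver table that carry the symbols Acot1, Acot2, Acot3, Acot4, Acot5, Acot6, Acot8, Acot12 and Acot13, of 36788 gene rows in all. They were chosen by their levels in FSH against saline livers, with that contrast already known, so the contrast is given below as a description, with counts, folds and errors but no p-value for any member.

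The libraries came from livers of female wild-type C57BL/6 mice over 12 weeks old, all of them ovariectomized (OVX) and fed a high-fat diet. The methods instead give a mixed background of C57BL/6J with another strain for all mice. FSH was injected into 5 of the mice, numbered 1, 2, 3, 4 and 6, and saline into 6, numbered 1 to 6; the methods name daily injections of a recombinant FSH product. Every mouse in both groups lacked ovaries, so the comparison asks what FSH did to the liver without ovarian steroids, and holds no intact or chow-fed animals. Values are CPM, the reads counted on a gene scaled to 1000000 reads per library. Totals ran from 11410596 to 19909327 reads in the FSH group and from 10801891 to 16077442 in the saline group, so a count of 0 allows a level of up to 0.151 CPM in the deepest library and 0.278 CPM in the shallowest, counting error only.

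The libraries held the markers of their labelled tissue. The summed level of 5 hepatocyte genes was between 90111 and 110882 CPM with FSH and between 82939 and 113272 CPM with saline, and 5 adipocyte genes summed to at most 0.258 and 0.612 CPM, with Lep at 0 in every library. Of 5 Kupffer cell and macrophage genes 1 was lower with FSH, and their sum was 83.8 to 229 CPM with FSH and 141 to 277 CPM with saline. Of 4 cholangiocyte genes 1 was higher with FSH, with sums of 7.97 to 11.1 and 8.37 to 10.3 CPM. In bulk liver, fewer cells of a type and less RNA per cell cannot be told apart. Clock genes separated the groups: Dbp, a clock output factor, was between 42.6 and 121 CPM in FSH livers and between 3.40 and 4.95 CPM in saline livers. The time of day at which livers were taken is not given in the sources used here, so a difference in clock state and the treatment cannot be told apart for any result below.

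Acot1 to Acot6 lie side by side on the plus strand of chromosome 12 in the GRCm38 assembly, in the order Acot2, Acot1, Acot4, Acot3, Acot5 and Acot6, within 123.5 kb (chr12:83987861-84111349, GENCODE M21). Acot1 (chr12:84009490-84018371) is the cytosolic long-chain thioesterase, and Acot2 (chr12:83987861-83993873) is its mitochondrial counterpart. Over the aligned coding bases the 15 pairs within the cluster were 74.48 to 95.24% identical, and the highest identity was that of Acot1 with Acot2. The reading frame of Acot2 starts 123 bases earlier, with the leader that sends the protein to mitochondria, and the first 45 bases of the Acot1 frame line up with bases 124 to 168 of the Acot2 frame. These stretches are shown because they are where 2 nearly identical genes part; capitals mark the 9 bases that differ.
Acot1: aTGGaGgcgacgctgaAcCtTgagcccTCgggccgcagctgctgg
Acot2: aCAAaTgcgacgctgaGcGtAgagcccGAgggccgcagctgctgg

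Acot3 (chr12:84052144-84060402), Acot4 (chr12:84038379-84048601), Acot5 (chr12:84069325-84076020) and Acot6 (chr12:84100654-84111349) encode peroxisomal enzymes of the same type, as does the structurally unrelated Acot8 (chr2:164792765-164804882, minus strand), a broad-range type II enzyme. Many proteins enter the peroxisome by a short signal at their very end. The last 30 coding bases of these 5 reading frames are therefore shown, with the 3 codons before the stop codon in capitals.
Acot3: aaaaagaagacaatcccaGCAAAACTGtga
Acot4: acccacagcagagcctccTGTAGACTGtag
Acot5: gacaagaggccaagcccaGCAAAACTAtga
Acot6: gaaaagcctgccaggcacAGCAAACTGtaa
Acot8: aagcctcaggtgtcagagAGTAAGCTAtag

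Acot12 (chr13:91741512-91786148, plus strand), the cytosolic acetyl-CoA hydrolase of liver, and Acot13 (chr13:24817948-24831540, minus strand), also called Them2 and known to bind the phosphatidylcholine transfer protein Pctp, complete the set. All 9 are protein-coding genes, and values were counted per gene rather than per exon.

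Because the cluster genes resemble each other, reads from one could have been counted on another. Stretches of 100 bases were taken from 1 annotated transcript of each gene, that with the longest complete reading frame. Of these stretches, 21.9% of those of Acot1 and 17.1% of those of Acot2 occur exactly in a transcript from elsewhere. In both cases this is mainly the other of the pair. The shares were 8.32% for Acot5, 4.44% for Acot3, 1.82% for Acot6, 0.360% for Acot4 and 0 for Acot8, Acot12 and Acot13. Stretches shared with a gene annotated over the same bases come on top of these, at 16.3% for Acot3, 8.83% for Acot4, 13.8% for Acot8 (with Snx21), 1.69% for Acot12 and 0 for the others. These shares do not bound the reads that could have been misassigned to a gene, which also depend on the level of its neighbour. How such reads were assigned, and whether strand was used, is not given in the sources used here. Gm49366, a protein-coding gene annotated on the same strand, shares 396 exon bases with Acot3 and 33 with Acot4. It holds 9.90% of the stretches of Acot3. The deposited values have no row for it, so no level can be given, and whether its reads were counted on Acot3 or Acot4 is not known. An antisense gene, 4732463B04Rik, overlaps 9.08% of the exon bases of Acot3 and 9.22% of those of Acot4, and was counted at 2.07 CPM on average with at most 64 reads in a library. Its mean was 2.62 ± 0.980 CPM (SD, n = 5) in FSH livers and 1.60 ± 0.301 CPM (n = 6) in saline livers, and its log2 fold change was 0.52 with an SE of 0.21 (adjusted p = 0.132).

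In saline livers the members covered a wide range of levels once divided by exon length. That length counts all annotated exon bases of a gene, which can be far more than 1 transcript holds. It is 3919 bases for Acot1, 6413 for Acot6 and 1997 for Acot8, where the transcripts used above have 2272, 3388 and 1152. The order given here holds for this length only, and with transcript lengths the order of neighbours can differ. Acot13 was highest, with a median of 106.6 CPM per kb of exon, and was above Acot12 in all 6 livers. Acot12 (30.7 CPM per kb), Acot1 (23.3) and Acot3 (20.3) followed, and neighbours among these 3 overlapped in range. By this length Acot8 (11 CPM per kb) lay below Acot3 and above Acot2 (7.67) in every saline liver, while Acot2 and Acot4 (7.35) overlapped. Acot6 at 0.123 CPM per kb was far below these, and Acot5 had a median of 0. In FSH livers Acot3 stood second, with a median of 67.8 CPM per kb against 33.3 for Acot12, and the ranges of these genes did not overlap, whereas Acot1 had a median of 13.9 CPM per kb.

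**Figure D1:**
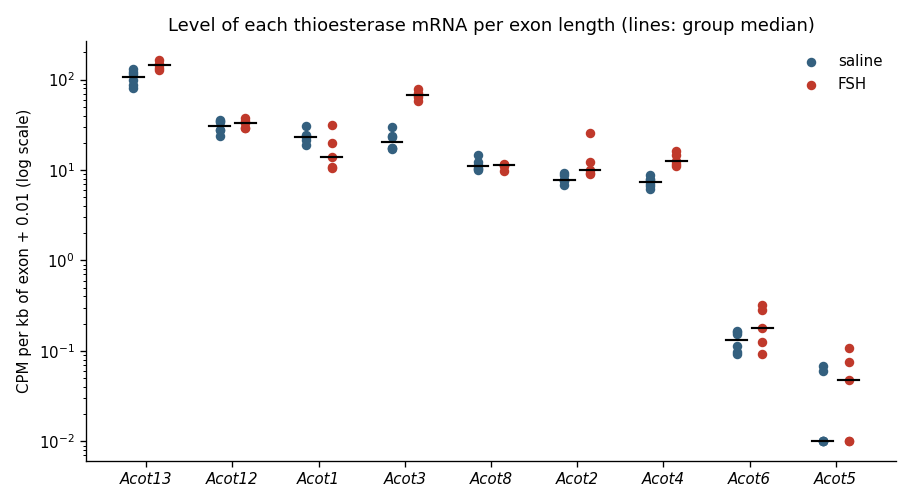
CPM per kb of exon for each thioesterase on a log axis, with 0.01 added so that values of 0 can be drawn; each point is a liver, blue for saline (n = 6) and red for FSH (n = 5), and lines mark group medians. Acot13 is at the top in both groups, Acot5 and Acot6 are at the bottom, and Acot3 moves from a saline median of 20.3 to an FSH median of 67.8.

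Acot3 was the member with the widest gap between the groups. Its values were 233, 271, 242, 219 and 200.3 CPM in FSH livers 1, 2, 3, 4 and 6, and the saline livers ran from 59.1 through a median of 69.7 to 102 CPM. Every FSH liver was above every saline liver, and the lowest FSH value (200.3) was far above the highest saline one (102). The means were 233 ± 26.4 CPM (SD, n = 5) and 73.8 ± 17.2 CPM (n = 6), a ratio of 3.16, with a log2 fold change of 1.68 and an SE of 0.14 on the log2(CPM + 0.5) scale. Leaving out each liver in turn moved the log2 fold change only between 1.62 and 1.78.

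Acot4, the peroxisomal thioesterase known for hydrolysing succinyl-CoA and other dicarboxylyl-CoAs, was next. It stood at 83.3, 109, 97.2, 73.6 and 78.2 CPM in the 5 FSH livers and from 41.6 through 49.1 to 58.7 CPM in the saline livers. The groups did not overlap here either. The means were 88.2 ± 14.5 and 49.4 ± 6.37 CPM, a ratio of 1.79 and a log2 fold change of 0.83 (SE 0.12), so that Acot4 stayed under the 2-fold threshold.

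Acot1 pointed the other way, with 1 liver against the rest of its group. FSH livers 1, 2, 3, 4 and 6 held 41.6, 122, 54.5, 42.1 and 77.8 CPM, and the saline livers 74.0 to 119 CPM with a median of 91.3. In FSH mouse 2 the level was above all saline livers, in FSH mouse 6 it was above the lowest saline liver, and in the other 3 it was below all of them. The means of 67.7 ± 33.9 and 92.2 ± 14.97 CPM gave a log2 fold change of -0.56 (SE 0.23), and -0.80 without FSH mouse 2.

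Acot2, whose product works in the mitochondrial matrix, was likewise shaped by FSH mouse 2. It was at 26.97, 56.6, 22.1, 20.4 and 19.9 CPM with FSH and from 15.03 through 16.9 to 20.1 CPM with saline. FSH mouse 6 fell within the saline range and the other 4 lay above it. The means were 29.2 ± 15.6 and 17.5 ± 1.91 CPM, and the log2 fold change of 0.61 (SE 0.21) was 0.34 when FSH mouse 2 was left out. The spread between livers was 53.3% of the mean with FSH and 10.9% with saline for Acot2, and 50.1% and 16.2% for Acot1.

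The remaining cluster genes were scarce. Acot6 was at 2.01, 1.77, 0.736, 1.098 and 0.526 CPM with FSH and from 0.533 through 0.790 to 0.996 CPM with saline, on 6 to 40 reads per library, and the groups overlapped (log2 fold change 0.38, SE 0.23). That value was 0.22 without FSH mouse 1, 0.54 without FSH mouse 6 and 0.68 with edgeR or DESeq2. Acot5 had 0 to 2 reads in every library, which is under the floor of 3 reads, so that no level and no fold can be given for it.

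Outside the cluster, Acot13 was at 99.7, 95.4, 123, 109 and 108 CPM in FSH livers and from 59.4 through 79.3 to 97.6 CPM in saline livers. Only the value of FSH mouse 2 fell within the saline range. The means were 107 ± 10.7 and 78.7 ± 15 CPM, with a log2 fold change of 0.46 (SE 0.12). Acot12 (107 ± 12.3 and 101 ± 15.7 CPM, log2 fold change 0.10, SE 0.11) and Acot8 (22.1 ± 1.52 and 22.9 ± 3.38 CPM, log2 fold change -0.04, SE 0.10) had overlapping ranges in the groups.

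**Figure D2:**
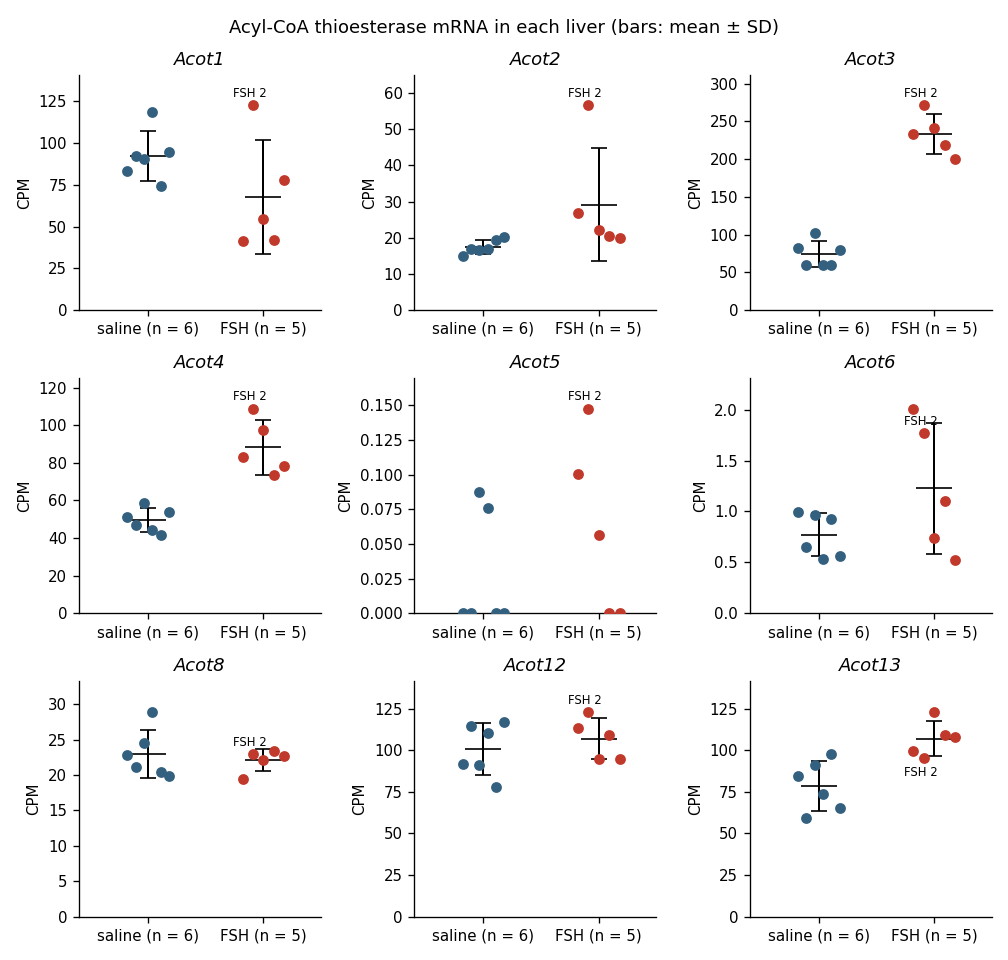
CPM of each thioesterase mRNA (vertical axes, 1 panel per gene) in saline (blue, n = 6) and FSH (red, n = 5) livers, with mean and SD as bars except for Acot5, which had at most 2 reads. The groups are apart in the panels of Acot3 and Acot4, and the labelled FSH mouse 2 stands far above the other FSH livers for Acot1 and Acot2.

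In the fit over all genes, 8 of the 9 members passed the filter of a mean of at least 0.5 CPM, with Acot5 left out. Past both thresholds used in the study, an adjusted p under 0.05 and more than a 2-fold change, 1 member was higher (Acot3) and 0 were lower, where 0.887% of the 12733 genes tested were higher and 0.942% lower, or 1.83% in either direction. At the adjusted p alone 3 members were higher (Acot3, Acot4 and Acot13) and 0 lower, beside 6.19% and 4.41% of all genes (10.6% together), and 5 did not pass. The groups did not overlap, with FSH higher, for 2 members (Acot3 and Acot4) and for 3.95% of all genes; FSH was lower without overlap for 0 members and 2.72% of all genes, which makes 6.67% in either direction. The median log2 fold change was 0.42 over the 8 members and 0.02 over all genes tested. Nothing is read from these counts, since the family was chosen with this contrast in view. The call of Acot13 was lost with edgeR, with TMM or median-ratio scaling, without the low-value filter, and when any one of FSH mice 1, 3 and 4 or saline mice 2, 4 and 6 was left out, and without FSH mouse 2 the adjusted p of Acot1 passed. That of Acot2 passed with DESeq2 and with the covariate for transcript length described below.

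Summing the 6 neighbours removes the effect of how counted reads were divided among them. It does not restore shared reads that may have been left uncounted, nor separate reads shared with overlapping genes. The sum was 387, 561, 417, 356 and 377 CPM in the FSH livers and between 196 and 269 CPM in the saline livers, with no overlap. The means of 419 ± 81.9 and 234 ± 25.4 CPM differed by 0.83 on the log2 scale (SE 0.12), and by 0.72 to 0.88 when single livers were left out. For the sum of Acot1 and Acot2 alone, the pair that shares most sequence, the means were 96.9 ± 47.8 and 110 ± 14.8 CPM (log2 fold change -0.28, SE 0.21), and it was -0.53 without FSH mouse 2, -0.15 without FSH mouse 4 and -0.19 without FSH mouse 1.

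The make-up of the cluster's reads differed as well. Acot1 held 39.6% of them in saline livers (33.7 to 49.4%) and 15.6% in FSH livers (10.8 to 21.8%), while Acot3 held 31.4% (25.0 to 38.0%) and 56.3% (48.3 to 61.5%). Neither range overlapped between the groups. The share of Acot4 was 21.1% in both. Per liver, Acot3 had 0.506 to 1.129 reads for each read of Acot1 with saline and 2.22 to 5.60 with FSH. The ratio of Acot1 to Acot2 ran from 3.81 to 7.06 with saline and from 1.54 to 3.91 with FSH, which overlap in FSH mouse 6 and saline mouse 5. Shares add up to a fixed total, so that a larger share of one gene lowers the others.

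**Figure D3:**
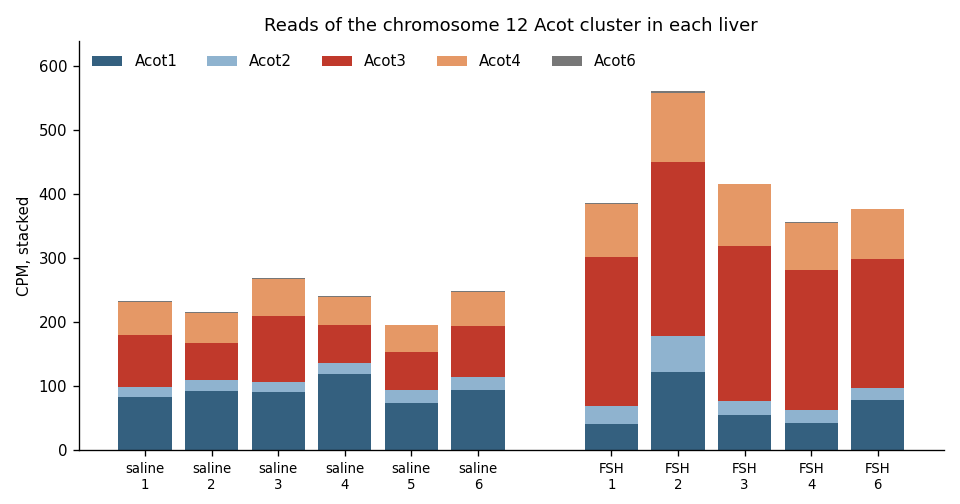
Stacked CPM of the chromosome 12 cluster genes (vertical axis) in each saline and FSH liver; Acot5, at most 0.147 CPM, is not drawn. The red Acot3 block averages 73.8 CPM in saline livers and 233 CPM in FSH livers, and the blue Acot1 block averages 92.2 and 67.7 CPM, with 122 CPM in FSH mouse 2.

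Within groups, which the choice of the genes did not use, Acot3 and Acot4 varied together. After each group's mean was subtracted, their log2 values over the 11 libraries had a Pearson r of 0.84 and a Spearman rho of 0.78. The r was 0.94 over the 6 saline livers alone, 0.89 over the 5 FSH livers alone, and 0.81 to 0.89 when single livers were left out. The 2 genes are neighbours, share 21 of their stretches of 100 bases, and both overlap Gm49366 and the antisense gene named above, and the part of shared reads in this value was not tested. Over the 21 pairs of the 7 members with at least 5 CPM the median r was 0.15, and -0.002 to 0.29 when single livers were left out. These correlations are descriptions across libraries that share their depth between genes.

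For Acot1 and Acot2 the likeness rested on 1 liver: r was 0.63 with FSH mouse 2 and -0.40 without it, and rho was 0.22. In that liver some genes of fatty acid oxidation were high as well, while Ech1, Etfa and Etfb, mitochondrial or peroxisomal oxidation genes named after their values had been seen, had their lowest FSH values there (486, 415 and 474 CPM). Cyp4a14 and Cyp4a10, omega-hydroxylases induced by PPARalpha, were at 1027 and 965 CPM there, against 351 to 590.2 and 388 to 534 CPM in the other FSH livers. Of 21 genes of PPARalpha and its fasting-induced targets, 17 had their highest FSH value in mouse 2, as did 17 of 20 peroxisomal genes, 8 of 15 clock genes and 33.5% of all genes tested. Relative to each gene's mean, the list averaged 0.46 (log2) in that mouse, between -0.36 and -0.12 in the other 4 FSH livers, and between -0.07 and 0.18 in the saline livers. The library of that mouse also stood apart from the FSH libraries in the balance of short against long genes described below, at -0.37 (log2) against 0.07 to 0.22. Saline mice 2 and 6 were at -0.35 and -0.30. Their Acot1 lay 0.01 and 0.05 (log2) from the saline mean, and their Acot2 -0.04 and 0.20. Within groups the balance went with Acot2 at an r of -0.65 and with Acot1 at -0.44. Both r values include FSH mouse 2 and were not computed without it. The part of this balance in the values of that mouse was not tested.

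Acot12 and Acot13 moved against each other, with an r of -0.91, a rho of -0.89 and -0.95 to -0.88 when single livers were left out. Acot13 has the shortest exons of the family (0.744 kb) and Acot12 has 3.29 kb. The balance between 242 genes with under 1000 exon bases and 4947 with over 4000 varied between libraries, from -0.37 to 0.22 (log2) in the FSH group and -0.35 to 0.24 in the saline group. Within groups it went with Acot13 at an r of 0.73 and with Acot12 at -0.69. With this balance as a covariate, an analysis added after the data had been seen, the log2 fold change was 0.41 for Acot13, 0.14 for Acot12, 1.70 for Acot3, 0.86 for Acot4, 0.69 for Acot2 and -0.50 for Acot1.

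**Figure D4:**
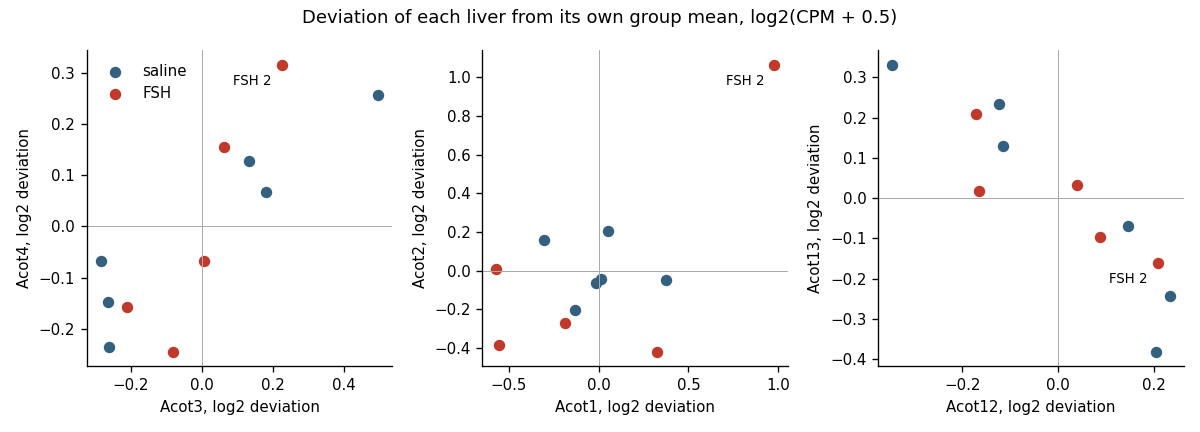
Each liver's log2 deviation from its own group mean for Acot4 against Acot3, Acot2 against Acot1 and Acot13 against Acot12 (blue saline, n = 6; red FSH, n = 5). The left panel rises (r = 0.84), the middle one depends on FSH mouse 2 (r = -0.40 without it) and the right one falls (r = -0.91).

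Among 8847 genes with a symbol and at least 5 CPM, those most like each member in the same measure were, for Acot3, Acad9 (r = 0.94), Yipf5 and Morf4l2, and for Acot4, Hcfc2 (0.90), Yipf5 and Acad9. Acad9, an acyl-CoA dehydrogenase family protein needed to assemble respiratory complex I, and Yipf5, a membrane protein of the early secretory route, thus stood in the top 3 for both. For Acot1 they were Cyp4a14 (0.90), the glutamate transporter Slc1a2 and Cyp4f14, and for Acot2 the lysosomal arylsulfatase Arsa (0.92, but 0.61 without FSH mouse 2), Cyp4a31 and Bag4. For Acot8 they were Tmem106c (0.96), Smpd2 and Baz2b, for Acot12 Oxsr1 (0.96), Ubap1 and Retreg3, and for Acot13 Txn1 (0.96), Bcap31 and Actb. With this many genes searched over 11 libraries high values arise readily, and nothing is read from the names.

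Relatives of the family gave a mixed picture. Of 10 further thioesterases and acyltransferases with the same folds 8 could be tested, of which 1 rose and 2 fell at an adjusted p under 0.05, beside 6.19% and 4.41% of all genes, and their median log2 fold change was -0.15. The genes that fell were Acnat2 (60.2 ± 24.7 CPM with FSH, 116 ± 18.5 with saline, log2 fold change -1.01, SE 0.20, adjusted p = 0.00452) and Acnat1 (17.1 ± 2.64 and 29.7 ± 6.56 CPM, log2 fold change -0.77, adjusted p = 0.00297), peroxisomal enzymes that join fatty acids to taurine and share their fold with the type I thioesterases. Acot7, a cytosolic thioesterase best known from brain, rose from 31.0 ± 3.55 to 40.1 ± 1.38 CPM (log2 fold change 0.37, adjusted p = 0.0162). Acnat1 and Acot7 were named after their values had been seen. Baat, Acot9, Acot11, Them4 and Them6 did not pass, and Acot10 had no read in any library.

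**Figure D5:**
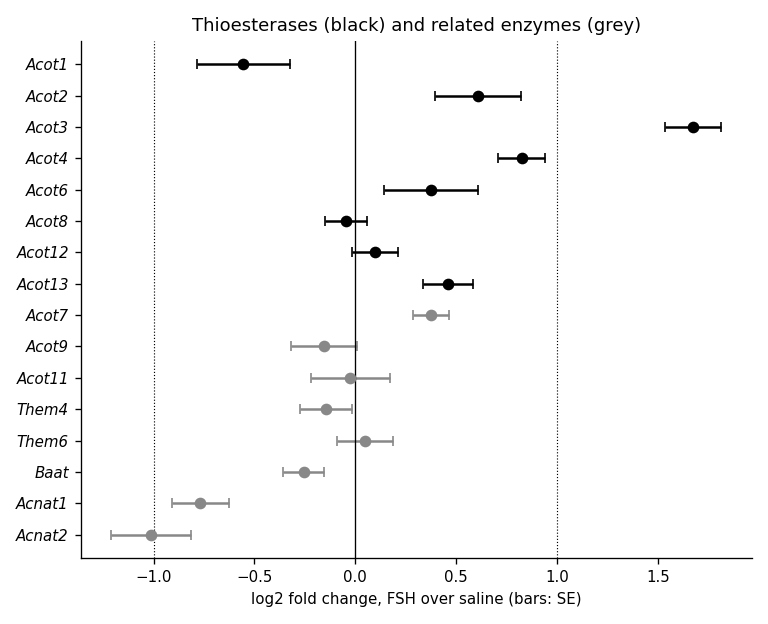
Log2 fold change of FSH over saline livers with its SE (horizontal axis) for 8 thioesterases (black) and 8 related enzymes (grey); dotted lines mark a 2-fold change. Acot3 at 1.68 lies beyond the right line, Acnat2 at -1.01 lies just past the left one, and Acot8 and Acot12 lie near 0.

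The other side of the acyl-CoA cycle, the synthetases, had 15 testable genes, of which 4 rose and 0 fell at an adjusted p under 0.05, the threshold for this and the following lists, where 6.19% and 4.41% of all genes did. Their median log2 fold change was 0.00. Acss2, which makes acetyl-CoA from acetate in the cytosol, went from 168 ± 69.3 to 764 ± 262 CPM (log2 fold change 2.19, SE 0.27, adjusted p = 0.000153), and Acsl3, a long-chain synthetase of the endoplasmic reticulum and lipid droplets, from 33.2 ± 10.8 to 68.1 ± 17.6 CPM (1.07, SE 0.27, adjusted p = 0.021). The call of Acsl3 was lost without FSH mouse 1 (adjusted p = 0.0635) or 3 (adjusted p = 0.057). The main liver form Acsl1 was at 727 ± 174 and 702 ± 59.2 CPM (adjusted p = 0.927).

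Coenzyme A, the other product of a thioesterase, is made from pantothenate and is taken apart in peroxisomes. Of 14 genes of its synthesis and breakdown 6 rose and 0 fell, beside 6.19% and 4.41% of all genes, with a median log2 fold change of 0.37 against 0.02 over all genes. Nudt7, the peroxisomal enzyme that cleaves coenzyme A, had the largest value of these (239 ± 66.1 against 90.4 ± 16.6 CPM, log2 fold change 1.37, SE 0.18, adjusted p = 0.000194), with no overlap between the groups. Among 20 genes of peroxisomal acyl-CoA metabolism 2 rose and 2 fell, beside the same 6.19% and 4.41%, with a median of 0.13. Crot, which turns medium-chain products of the peroxisome into carnitine esters and so competes with the thioesterases there, fell from 721 ± 142 to 305 ± 44.1 CPM (log2 fold change -1.23, SE 0.13, adjusted p = 4.07e-05). Every FSH liver lay below every saline liver for Crot.

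Of 20 genes of mitochondrial beta-oxidation 0 rose and 1 fell, beside 6.19% and 4.41% of all genes, with a median of 0.02. That gene was Acadm, the medium-chain dehydrogenase (log2 fold change -0.28, SE 0.08, adjusted p = 0.0369), and Cpt1a, which admits long-chain acyl groups to mitochondria, did not pass (0.50, SE 0.16, adjusted p = 0.0579). Of 21 genes of PPARalpha and its fasting-induced targets 0 rose and 4 fell, beside 6.19% and 4.41% of all genes, with a median of -0.05. Angptl4, a secreted inhibitor of lipoprotein lipase, fell by 0.99 on the log2 scale (SE 0.24, adjusted p = 0.0162) and Cyp4a10 by 0.82 (SE 0.22, adjusted p = 0.0301), while Ppara itself was at 40.8 ± 20.53 and 38.1 ± 9.47 CPM (adjusted p = 0.982). Of 11 acyl-CoA and lipid binding partners 4 rose and 2 fell, beside 6.19% and 4.41% of all genes, among them Dbi, the acyl-CoA binding protein (log2 fold change 0.49, SE 0.13, adjusted p = 0.0243), and Fabp4 (-0.64, SE 0.18, adjusted p = 0.0342). Pctp, the binding partner of Acot13 named above, was also among those that rose (210.8 ± 40.7 against 156 ± 16.0 CPM, log2 fold change 0.41, SE 0.12, adjusted p = 0.0413). Some of these calls depended on single livers. Acadm was lost without any one of FSH mice 1, 3 and 4 or saline mice 3, 4, 5 and 6 (adjusted p = 0.0542 to 0.118), and Cyp4a10 without FSH mice 1, 3 and 4 or saline mice 4, 5 and 6 (0.0532 to 0.09). Dbi was lost without FSH mice 1, 3 and 4 or saline mouse 3 (0.0522 to 0.0694) and Fabp4 without FSH mice 1, 3 and 6 or saline mice 1 and 3 (0.0591 to 0.0755), each left out singly, whereas Cpt1a passed without FSH mouse 3 (0.0323) or 6 (0.0383) or saline mouse 2 (0.0443).

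Clock genes made up the list with the largest changes: of 15 tested, 6 rose and 5 fell, beside 6.19% and 4.41% of all genes. Dbp and Tef, factors of the PAR bZIP family whose targets in liver are known to include Acot genes, rose by 4.02 (SE 0.23, adjusted p = 1.15e-07) and 1.08 (SE 0.11, adjusted p = 2.07e-05) on the log2 scale. Hlf, of the same family, was at 50.17 ± 3.05 and 47.99 ± 4.43 CPM (log2 fold change 0.07, SE 0.09, adjusted p = 0.687). Npas2 was at 4.64 to 7.14 CPM in the saline livers and had 0 reads in 4 of 5 FSH livers (adjusted p = 2.95e-09), and its fitted log2 fold change of -3.61 depends on the added 0.5 CPM, with -7.81 to -2.75 over the alternatives. Arntl, its partner, fell by 2.33 (SE 0.20, adjusted p = 1.14e-05) and Per3 rose by 2.61 (SE 0.21, adjusted p = 6.91e-06). Their part in the Acot values was not tested.

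Promoter sequence was searched for the sites of these factors and of PPARalpha. RefSeq promoters on GRCm38.p6, the 250 bases before the start, were found for 7 of the 9 members. The E-box CACGTG, the site bound by Arntl with Clock or Npas2, was present in 1 of them, at bases -66 to -61 of Acot4, and 6.02% of 32851 mouse promoters of this length hold it. The surrounding 30 bases of the plus strand (chr12:84038301-84038330) are shown with the site in capitals.
Acot4 promoter: ctttcacaacacCACGTGggagtggcgaga

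Neither the D-box TTATGTAA, searched for Dbp and Tef and held by 0.819% of promoters, nor the direct repeat bound by PPARalpha (AGGTCA repeated after 1 base of any kind, held by 0.0335%), nor its looser form (AGGNCA repeated likewise, held by 0.338%), was found in these 7 windows on either strand. Sites outside the windows were not searched.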

How the data were processed

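Liver RNA from 11 mice (5 FSH, 6 saline) was sequenced as paired reads after NEBNext Ultra library preparation. The labels mention papain digestion of whole liver, while the methods name the RNeasy Plus kit. The authors deposited 1 table of CPM values for 36788 Ensembl genes, each library summing to 1000000. The submitters' processing notes name mm10, FastQC 0.11.2, cutadapt, Trim Galore 0.3.3, STAR and RSEM without their roles. Multi-mapping and strand settings are not given in the sources used here. All values (100%, tolerance 0.1 reads) came out as whole reads, which served for depth and for count tests.

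After genes averaging under 0.5 CPM were dropped, 12733 genes were fitted on the scale log2(CPM + 0.5) in R 4.3.3 by limma 3.58.1 (intensity trend, Benjamini-Hochberg adjustment). Adding 0.5 understates the change of low genes. edgeR 4.0.16 and DESeq2 1.42.0 on the recovered reads, TMM and median-ratio scaling, other pseudocounts, filters and fold thresholds, a replicate block and leaving out each library were alternatives. The code was tested on simulated data.

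Symbols came from GENCODE M21 (35555 identifiers matched), as did exon lengths and coding sequence, and promoters came from RefSeq. Named genes are all members, up to 5 genes of each list past both thresholds (smallest adjusted p first) or otherwise the 2 with the smallest p, the 3 genes most like each member, and genes that overlap members. Further genes (Acnat1, Acot7, Acsl1, Cyp4a14, Ech1, Etfa, Etfb, Hlf, Pctp, Ppara and the relatives that did not pass) were named after their values had been seen. The members and lists were chosen with earlier results of these data known. Cage allocation is not given in the sources used here, and p-values measure the spread between these livers only. No pair of libraries in a group agreed within sampling noise (lowest mean chi-square per gene 11.4).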

Additional observations from a re-analysis of the deposited data

Results flagged for a closer look

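Of 47 groups of values examined for a single sample far from the others, 3 had one, and chance alone marks about 1 group in 20. Acot2 was at 56.57 CPM in FSH mouse 2, against 19.9 to 26.97 CPM in the other 4 FSH livers. Cyp4a10 was at 965 CPM in the same mouse, against 388 to 534 CPM. Acadm was at 327.5 CPM in FSH mouse 1, against 366 to 379 CPM in the other FSH livers. No cause was tested for any of them.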

How the results depend on the processing

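The 233 genes past both thresholds became 707 with a 1.5-fold threshold and 1350 with none, and members past them went from 1 to 2 and 3. Related genes past both went to 25 and 38. They numbered 311 over all genes with edgeR and 304 with DESeq2, 212 without a filter, 220 with a minimum of 1 CPM, and 285 and 189 with pseudocounts of 0.1 and 1 CPM. Without single livers the ranges were 197 to 273 genes, 1 to 1 member and 12 to 16 related genes; the median r between members ran from 0.00 to 0.29. In saline livers alone 2 members changed rank in level.

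Replicate numbers did not pair the livers (r of same-numbered livers -0.07 to 0.36; 1 of 5 FSH livers correlated best with its own number), and a replicate block gave 251 genes and 1 member. No member's log2 fold change moved by more than the spread between livers in the settings run. Leaving out 1 liver cannot move it that far, because that liver is part of the spread, so the comparison says nothing about single livers. Without FSH mouse 2 the log2 fold change of Acot2 was 0.34 instead of 0.61, and that of Acot1 was -0.80 instead of -0.56. For Acot8 it was 0.02 instead of -0.04 without saline mouse 4. Over 22 alternatives at unchanged thresholds, Acot3 passed both thresholds and Acot4 the adjusted p in 22, and Acot13 in 12. All of them refit the same libraries, and the members were chosen with this contrast in view. These counts therefore describe the settings and lend the calls no support. Related calls were lost for Acadm in 10 settings, Cyp4a10 in 7, Fabp4 in 6, Dbi in 5 and Acsl3 in 2, and Cpt1a passed in 7; the cause was not tested.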
